A study of Homo sapiens with 21 samples.

Results

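The replication-dependent histone genes encode the histone proteins that cells make in bulk while they copy their DNA. They were taken as the rows whose current gene symbol is H1-1 to H1-6 or H2AC, H2BC, H3C or H4C followed by a number, which gave 66 genes of the 19683 in the table. The choice rests on symbols and not on any measured value. All libraries came from HepG2/C3A, a clonal derivative of the human hepatoma line HepG2 that the labels give as wild type, grown in supplemented MEM. The control group, called 2D, was grown as a flat monolayer. The other groups were cells of the same line made to aggregate into spheroids on low-adhesion plates, moved to a ClinoReactor for long-term culture, and collected at Day 3, 7, 10, 14, 21 and 28. Each of the 7 groups had 3 libraries numbered as biological replicates, 21 in all. The labels do not say which cultures the replicates came from, so p-values measure only the spread between these libraries, and a tumour line grown alone limits the groups as a model of liver. Monolayer and spheroids also differ in plate, vessel and time in culture, which cannot be told apart here.

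A nucleosome holds H2A, H2B, H3 and H4, and the linker histone H1 binds where DNA enters and leaves it. The genes of these proteins lie in clusters, lack introns for the most part, and are transcribed strongly in S phase, when the factor NPAT gathers at them. Their mRNAs typically end in a short stem-loop bound by SLBP instead of a poly(A) tail, and they are degraded when DNA synthesis stops. Some of the genes can also give longer polyadenylated transcripts, known from cells that have left the cycle.

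TempO-Seq, which measured the RNA, ligates adjacent detector oligos on a short stretch of each transcript and counts the products, with no selection for poly(A). A level therefore depends on its probe and compares libraries, not genes. Levels are in CPM, a gene's counts relative to its library's total after scaling with edgeR's TMM factors. Totals ran from 18760232 to 43443262 counts per library with a median of 31997292. Of the 66 members, 59 had enough counts for edgeR's quasi-likelihood test, fitted on all 12345 genes that passed the filter on low counts. In 45 of the 59 every monolayer library reached the filter's level of 0.3125 CPM, and in the other 14 at least 1 did not. The 7 untested members were H1-6, H2AC12, H2BC9, H2BC10, H2BC12, H3C11 and H4C13, the last 2 of them at 0 throughout and none above 62 counts over all libraries. A member is said to have risen or fallen where the Benjamini-Hochberg adjusted p, over all genes tested, was under 0.05. The summed level of 5 hepatocyte-lineage markers (ALB, AFP, APOA1, TTR and HNF4A) lay between 6160 and 49800 CPM, and the sum of 7 fibroblast, endothelial and leukocyte markers never exceeded 1.02 CPM. COL1A1, COL1A2, DCN and PTPRC were at 0 in every library.

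Replication-dependent histone mRNA was scarce in the monolayer and abundant in young spheroids. Together the 66 genes held 0.235%, 0.224% and 0.227% of all counts in the monolayer libraries, and 1.87%, 1.87% and 1.92% at Day 3. The share was 1.50%, 1.46% and 1.41% at Day 7 and reached 2.48%, 2.59% and 2.20% at Day 10. It was 0.798%, 0.690% and 0.466% at Day 14, then 0.929%, 0.677% and 0.597% at Day 21 and 0.478%, 0.415% and 0.402% at Day 28. Every spheroid library lay above every monolayer library, and the highest 3 were those of Day 10. In these bulk samples, fewer cells in S phase and less histone RNA per cell cannot be told apart. In CPM the sum was 2545 ± 99.0 in the monolayer, 18067 ± 268 at Day 3, 24528 ± 2236 at Day 10 and 4156 ± 550 at Day 28 (SD, n = 3).

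**Figure D1:**
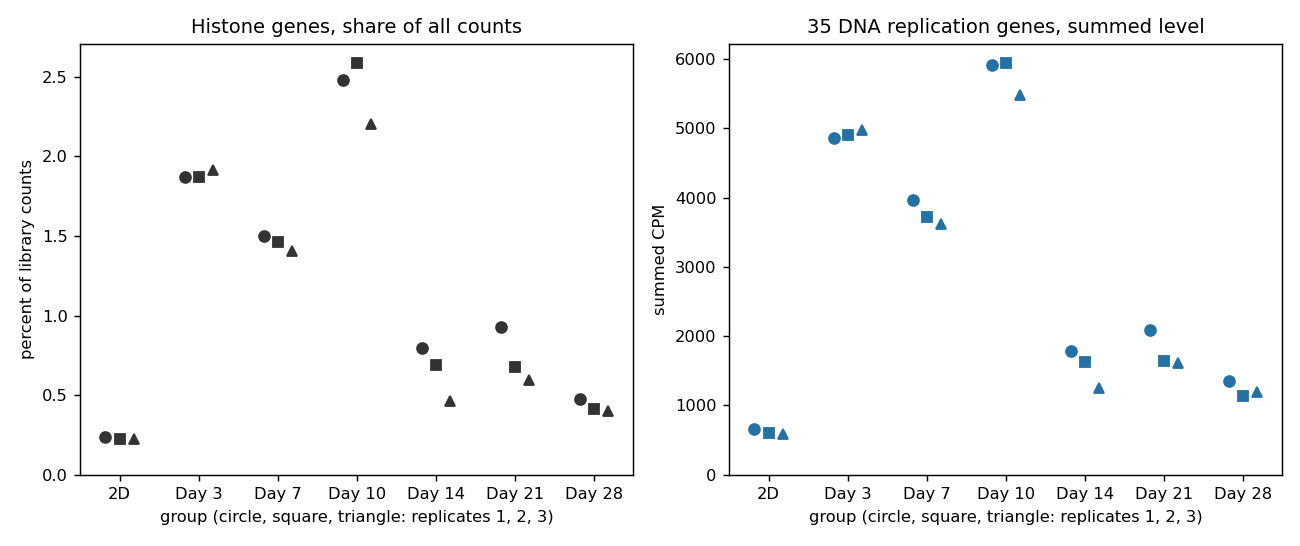
Left, share of all counts that fell on the 66 replication-dependent histone genes, in percent, and right, the summed CPM of 35 DNA replication genes, for each library by group; circle, square and triangle are replicates 1, 2 and 3. The monolayer libraries sit between 0.224% and 0.235% on the left and the Day 10 libraries between 2.20% and 2.59%, and the Day 10 libraries are also highest on the right.

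At Day 3 against the monolayer, 53 of the 59 tested members rose and 3 fell, with a median log2 fold change of 3.30. Over all genes tested, 40.1% rose, 37.8% fell and the median was 0.06. The groups did not overlap for 56 members (94.9%), beside 80.9% of all genes tested. Some members passed the filter only through spheroid libraries, where they are high. Among the 45 with all monolayer libraries at the filter's level, 43 rose and 2 fell, with a median of 3.33 and values from -3.98 for H2BC21 to 5.80 for H2AC4. Of the other 14, 10 rose, 1 fell and 3 did not pass the test. All 12 tested H3 genes rose, with a median of 4.51. Among them H3C1, H3C7, H3C8 and H3C15 passed the filter through spheroid libraries. In the other families, 4 of 5 H1, 13 of 15 H2A, 13 of 14 H2B and 11 of 13 H4 genes rose. Of the rest, H2AC6, H2BC21 and H4C14 fell, and H1-3, H2AC11 and H4C7 did not pass the test.

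**Figure D2:**
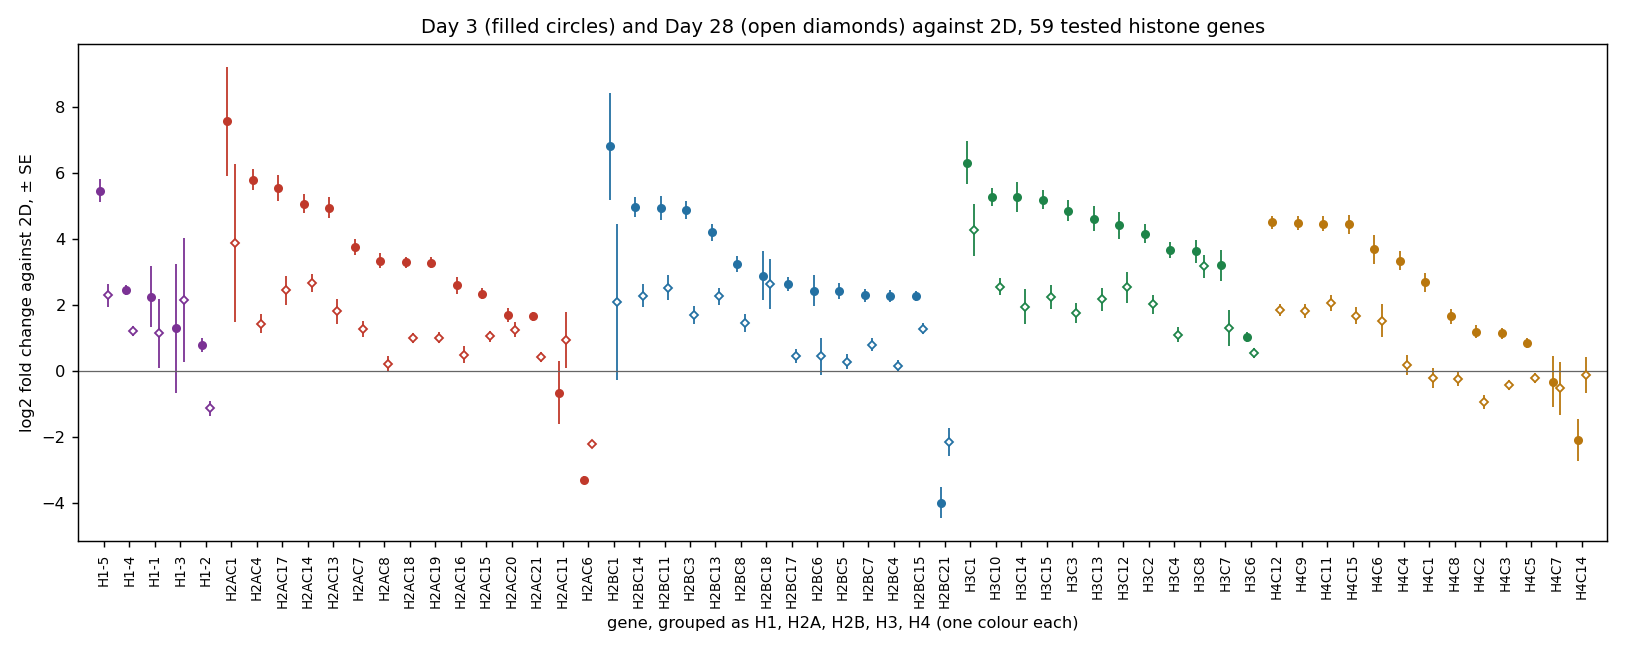
Log2 fold change against the monolayer of the 59 tested members with bars of 1 SE, filled circles for Day 3 and open diamonds for Day 28, grouped and coloured by family and sorted by the Day 3 value. At Day 3 53 members are higher, and H2AC6, H2BC21 and H4C14 lie below 0 and pass edgeR's test. H2AC1 and H2BC1 have no monolayer counts, so their plotted values rest on the fit's prior count.

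The linker histones differed in size of change. H1-4, the H1 gene with the most counts, stood at 575, 513 and 533 CPM in the monolayer and at 2953, 2977 and 2967 CPM at Day 3 (log2 fold change 2.46 ± 0.15 SE, edgeR adjusted p = 8.6e-11). H1-5, chromosome 6, 27866849 to 27867529 on the minus strand in GRCh38, had 4.11, 3.05 and 2.86 CPM in the monolayer and 151, 144 and 141 CPM at Day 3. Its log2 fold change was 5.47 ± 0.34, the largest of the H1 genes. H1-2 had 274, 277 and 281 CPM in the monolayer and 465, 486 and 497 CPM at Day 3, a log2 fold change of 0.80 ± 0.22 that was the smallest of the H1 genes that rose. All 3 rose without overlap between the groups. H1-3 rested on 6 counts at Day 3 and 2 in the monolayer, a ratio of 2.89 with a 95% counting interval of 0.516 to 29.2. H1-1 was also rare, at no more than 0.71 CPM in any library, and rose with a log2 fold change of 2.25 ± 0.93.

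H1 promoters carry a motif of their own, the H1 box AAACACA, and the 250 bases before the RefSeq starts of H1-5 and H1-2 are shown because these genes had the largest and the smallest H1 rise that passed the test. They are from GRCh38.p14, in the direction of the gene, which is on the minus strand for both. Capitals mark AAACACA and CCAAT on either strand (TGTGTTT and ATTGG are their reverse complements); TATAAA and the octamer ATTTGCAT, searched likewise, were not found in them.

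H1-5, chr6:27867589-27867838: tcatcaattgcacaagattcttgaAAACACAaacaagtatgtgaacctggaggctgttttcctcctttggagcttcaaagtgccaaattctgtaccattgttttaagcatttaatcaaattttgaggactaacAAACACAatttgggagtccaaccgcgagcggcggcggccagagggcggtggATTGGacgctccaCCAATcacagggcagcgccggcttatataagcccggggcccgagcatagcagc

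H1-2, chr6:26056471-26056720: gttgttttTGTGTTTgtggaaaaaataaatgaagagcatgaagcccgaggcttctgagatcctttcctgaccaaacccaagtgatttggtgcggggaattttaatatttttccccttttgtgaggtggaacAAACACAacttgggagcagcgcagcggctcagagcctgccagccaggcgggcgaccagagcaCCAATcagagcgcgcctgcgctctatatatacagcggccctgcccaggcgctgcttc

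Both stretches held AAACACA at 2 places. In windows from 250 bases before to 50 after the start, all 6 H1 windows held AAACACA and all 6 held CCAAT, beside 5.66% and 34.6% of the 34943 promoter windows in the RefSeq table. CCAAT was not particular to H1, being in 100% of H2A, H2B and H3 windows and in 25% of H4 windows. AAACACA was in 6.67% of H2A, 0% of H2B, 15.4% of H3 and 0% of H4 windows. RefSeq windows were found for 61 of the 66 members.

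Among H2A genes, H2AC4 had 21.1, 14.0 and 15.1 CPM in the monolayer and 923, 857 and 977 CPM at Day 3. Its log2 fold change was 5.80 ± 0.31 (edgeR adjusted p = 7.4e-11). H2AC4 lies on chromosome 6 at 26033176 to 26033568, minus strand, in a single exon. It shared no run of 50 bases with another member's transcript. H2AC14 went from 37.6, 29.4 and 27.6 CPM to 1020, 1058 and 1086 CPM, and H2AC18 from 132, 125 and 129 CPM to 1232, 1268 and 1289 CPM. Both rose without overlap, but H2AC14 shared 83.7% of its 50-base runs with other members. H2AC18 and H2AC19 are near-identical copies, and H2AC18 took 55.62% to 58.73% of their joint counts in every library, so their values may not be separate measurements. H2AC1, a histone gene known from testis, had 0 counts in the monolayer and 72 at Day 3, at least 23.1-fold higher with a floor of 3 counts over the group. It entered the test only through spheroid libraries, where it is high, so the filter favoured a rise.

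H2B genes covered a similar range. H2BC14 had 1.82, 1.86 and 1.82 CPM in the monolayer and 59.4, 57.5 and 55.7 CPM at Day 3 (log2 fold change 4.97 ± 0.32, edgeR adjusted p = 4.7e-10). The H2B mRNA with the highest counts, H2BC17, went from 139, 127 and 127 CPM to 821, 817 and 821 CPM, a smaller change of 2.65 ± 0.21. H2BC7 had 79.8, 66.0 and 70.7 CPM in the monolayer and 309, 346 and 401 CPM at Day 3. H2BC1, also known from testis, had 0 counts in the monolayer and 43 at Day 3, at least 13.8-fold higher with the same floor. Like H2AC1, it entered the test only through spheroid libraries, so the filter favoured a rise.

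The H3 genes had the highest family median at Day 3. That median includes H3C1, H3C7, H3C8 and H3C15, which passed the filter through spheroid libraries, where they are high. The difference between families was not tested. H3C10 had 20.8, 17.0 and 14.6 CPM in the monolayer and 665, 674 and 684 CPM at Day 3, with a log2 fold change of 5.28 ± 0.27. H3C4 had 81.0, 72.7 and 71.6 CPM in the monolayer and reached 956, 936 and 967 CPM. H3C6 changed least of the H3 genes, from 7.37, 8.32 and 9.34 CPM to 16.3, 16.5 and 18.4 CPM (1.03 ± 0.14). H3C1 rested on 2 monolayer counts against 199 at Day 3, a ratio of 95.7 with a 95% counting interval of 26.1 to 796. H3C14 and H3C15 have transcripts that share all 50-base runs, so the counts of this pair may be split between them.

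H4C12 had 75.7, 75.2 and 71.1 CPM in the monolayer and 1685, 1612 and 1725 CPM at Day 3, the largest H4 change at 4.50 ± 0.21. H4C15 went from 68.7, 57.6 and 54.6 CPM to 1333, 1298 and 1308 CPM. H4C2 and H4C3 changed less, from 71.5, 83.0 and 74.0 CPM to 176, 170 and 177 CPM, and from 73.7, 76.9 and 84.2 CPM to 165, 162 and 192 CPM. Both had a log2 fold change a little above 1 (1.19 ± 0.20 and 1.14 ± 0.16). H4C12 shares all of its 50-base runs with other members, and 33 of the 62 members with a GENCODE transcript share at least 1 such run.

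H2AC6 moved against its family. It had 357, 324 and 317 CPM in the monolayer and 31.5, 34.5 and 36.0 CPM at Day 3. The libraries did not overlap and the log2 fold change was -3.29 ± 0.12 (edgeR adjusted p = 7.2e-18). At Day 7 it stood at 140, 160 and 163 CPM, and at Day 10 at 52.3, 53.0 and 71.7 CPM. From Day 14 to Day 28 it lay between 62.5 and 87.4 CPM. Against Day 3 it rose at Day 7 (2.19 ± 0.11), and against Day 7 it fell at Day 10 (-1.39 ± 0.11). The summed level of all members went the other way at both steps.

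H2BC21 also fell, on far fewer counts. It had 3.56, 4.55 and 4.33 CPM in the monolayer, from 84 to 179 counts a library, and 0.422, 0.242 and 0.0709 CPM at Day 3, from 2 to 17 counts. The log2 fold change was -3.98 ± 0.48 (edgeR adjusted p = 5.6e-09). At Day 7 it had 1.48, 1.18 and 1.74 CPM, a rise of 2.49 ± 0.49 over Day 3. Its Day 10 libraries, at 0.786, 0.163 and 1.13 CPM, overlapped those of Day 3. H4C14 rested on 3 to 7 counts a library at Day 3 and 8 to 30 in the monolayer, with 0.339, 0.509 and 0.976 CPM in the monolayer and 0.174, 0.138 and 0.106 CPM at Day 3. It fell by 2.08 on the log2 scale, with an SE of 0.63 (edgeR adjusted p = 0.0038).

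H4C14 and H4C15 are copies, on chromosome 1 at 149832659 to 149839767 (plus strand) and 149854045 to 149861210 (minus strand). The 250 bases before their RefSeq starts were identical at 250 of 250 positions, which is why 1 sequence is shown for both, in the direction of the gene. None of the 4 motifs was found in it on either strand.

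H4C15, chr1:149861160-149861409: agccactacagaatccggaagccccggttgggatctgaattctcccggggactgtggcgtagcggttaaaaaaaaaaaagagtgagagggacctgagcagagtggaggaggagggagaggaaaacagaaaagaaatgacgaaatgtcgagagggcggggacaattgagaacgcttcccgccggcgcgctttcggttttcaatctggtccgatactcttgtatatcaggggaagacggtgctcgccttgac

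In GENCODE 29 all 50-base runs of H4C14 and 91.1% of those of H4C15 were shared with another member. H4C15 rose 4.45 ± 0.28 on the log2 scale at Day 3 while H4C14 fell, so the symbols of this copy pair did not carry the same counts. The sources used here do not give the probes' positions.

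Many H2A and H2B genes stand head to head, transcribed away from a shared stretch of DNA. By RefSeq starts 10 such H2A and H2B pairs lay within 500 bases of each other, with 193 to 247 bases between the starts, and both genes were tested in all 10. In 7 pairs both genes rose at Day 3. Among these was H2AC1 with H2BC1, both at 0 counts in the monolayer and tested only through spheroid libraries. In 2 pairs the genes moved in opposite directions, H2BC4 with H2AC6 and H2BC21 with H2AC20, and in the other pair H2BC11 rose (4.94 ± 0.36) while H2AC11 did not pass the test (-0.66 ± 0.95). The stretches between the starts are shown for both opposed pairs and for H2AC14 with H2BC14, whose genes rose alike, on the plus strand of GRCh38.p14. Capitals mark the TATA box TATAAA (reverse complement TTTATA), the box CCAAT (reverse complement ATTGG) and the octamer ATTTGCAT (reverse complement ATGCAAAT), on either strand.

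H2BC4 and H2AC6, chr6:26123927-26124171: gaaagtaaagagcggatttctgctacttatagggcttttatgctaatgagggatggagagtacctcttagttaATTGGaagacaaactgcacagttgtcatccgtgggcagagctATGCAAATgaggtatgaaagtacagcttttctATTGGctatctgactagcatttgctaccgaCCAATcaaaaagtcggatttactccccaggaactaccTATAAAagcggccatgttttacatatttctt

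H2BC21 and H2AC20, chr1:149886683-149886917: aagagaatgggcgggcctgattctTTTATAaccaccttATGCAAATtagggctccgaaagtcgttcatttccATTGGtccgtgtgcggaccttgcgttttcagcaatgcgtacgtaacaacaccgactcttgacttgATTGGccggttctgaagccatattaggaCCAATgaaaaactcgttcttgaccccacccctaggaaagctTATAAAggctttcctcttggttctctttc

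H2AC14 and H2BC14, chr6:27814778-27815021: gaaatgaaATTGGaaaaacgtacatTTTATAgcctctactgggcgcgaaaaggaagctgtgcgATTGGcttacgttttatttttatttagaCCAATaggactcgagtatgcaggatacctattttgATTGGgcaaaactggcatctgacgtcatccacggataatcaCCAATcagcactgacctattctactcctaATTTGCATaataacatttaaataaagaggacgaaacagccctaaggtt

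H2BC4, left of the first stretch, had 67.4, 63.3 and 70.1 CPM in the monolayer and 310, 342 and 321 CPM at Day 3 (2.28 ± 0.18), while H2AC6, right of it, fell. H2AC20, right of the second stretch, had 2.58, 1.81 and 2.02 CPM in the monolayer and 7.16, 6.02 and 7.16 CPM at Day 3 (1.69 ± 0.21), while H2BC21, left of it, fell. H2AC14 and H2BC14 rose by 5.07 ± 0.29 and 4.97 ± 0.32. All 3 stretches held the CCAAT box, the TATA box and the octamer. Over the 10 pairs, CCAAT was found in 10, TATAAA in 8 and the octamer in 8. In the 300-base windows the octamer was in 73.3% of H2A and 78.9% of H2B windows, 7.69% of H3 windows, none of 12 H4 windows and 1.77% of all windows, and TATAAA in 11.6% of all windows. Both opposed pairs held all 3 motifs, while TATAAA was not found for H2AC7 with H2BC7, the octamer for H2BC13 with H2AC13, and neither for H2AC15 with H2BC15.

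**Figure D3:**
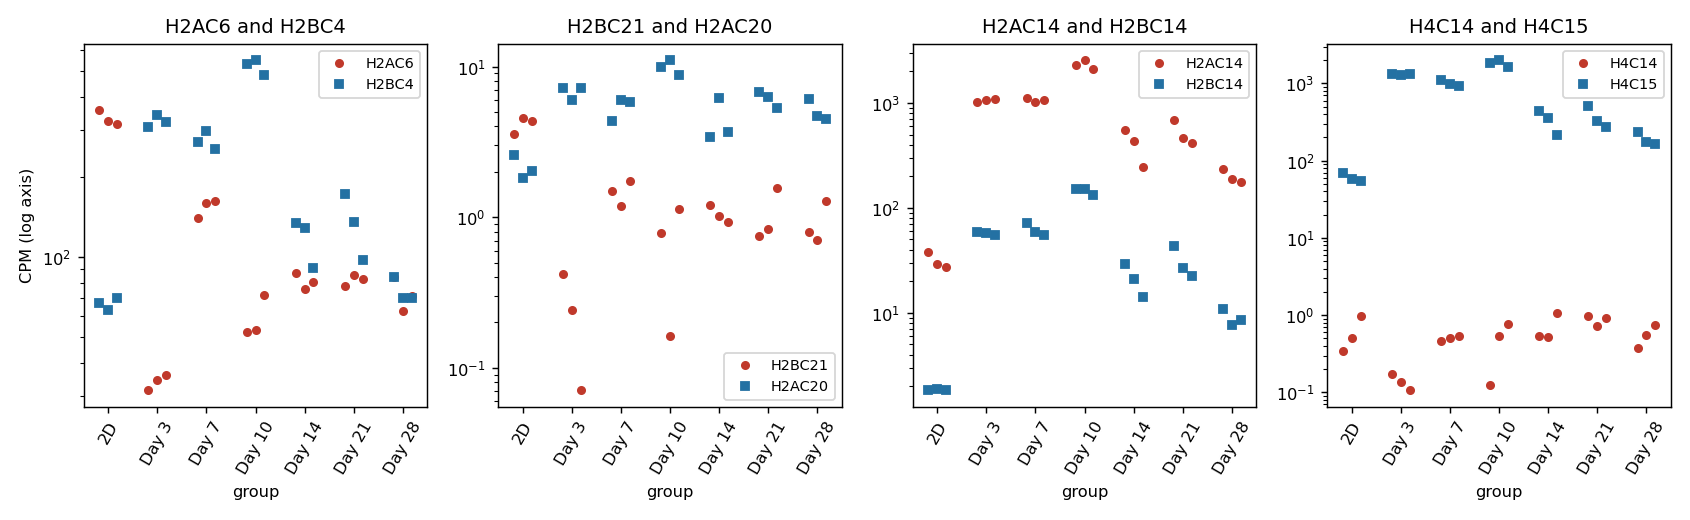
CPM on a log axis in every library by group, a point per library, for 3 head-to-head pairs and for the copies H4C14 and H4C15. From the monolayer to Day 3 H2AC6, H2BC21 and H4C14 drop while H2BC4, H2AC20 and H4C15 rise, and H2AC14 and H2BC14 rise together.

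The 3' ends were compared through the stem-loop, searched as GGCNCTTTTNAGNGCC in GENCODE 29 transcripts. It was found in 25 of the 62 members with a transcript, beside 34 protein-coding genes in all (0.173% of 19684), and many annotated member transcripts end at the stop codon, before it. The sites of 5 members are shown with the 16 searched letters in capitals: H2AC6, H2BC21 and H4C14, which fell at Day 3, and H2BC4 and H2AC13, which rose.

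H2AC6: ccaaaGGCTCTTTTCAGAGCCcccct

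H2BC21: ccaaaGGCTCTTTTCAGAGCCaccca

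H4C14: ccaaaGGCCCTTTTTAGGGCCgacca

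H2BC4: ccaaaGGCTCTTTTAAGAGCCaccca

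H2AC13: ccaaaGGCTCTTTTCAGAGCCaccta

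The members that fell thus hold a full stem-loop in their annotated transcripts. In the longest models that hold it, 1128 bases follow the site for H2AC6, 1167 for H4C14 and 1729 for H2BC21, against 116 for H2BC4 and 39 for H2AC13. The long models of H2AC6 and H4C14 are annotated as targets of nonsense-mediated decay. In protein-coding models the stretch is 1114 bases for H2AC6 but 194 for H4C14. H2BC4 also has a model of 659 bases with a poly(A) signal and without the stem-loop letters. H2AC6 was also the only one of the 62 members without a single-exon transcript. In the longest models, the tested members with fewer than 300 bases were H4C11, H2AC13, H2BC5, H2BC13, H2AC8, H4C2, H2BC4 and H4C9. With 6 to 212 bases, all of these rose. Of the 16 tested members with 300 bases or more after the stem-loop, 12 rose, 3 fell and H2AC11 did not pass the test. Of all genes tested, 40.1% rose and 37.8% fell. Whether the length of the stretch bears on the change was not tested. H4C15 and H3C14 were among the members with a long stretch that rose. H4C15 had 1314 bases in a model annotated as a decay target and 690 in its protein-coding model, and H3C14 had 1154. In protein-coding models alone 15 tested members had a stretch of 300 bases or more, of which 12 rose, 2 fell and H2AC11 did not pass the test. H4C14, which fell, was among the shorter ones there, with 194 bases.

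**Figure D4:**
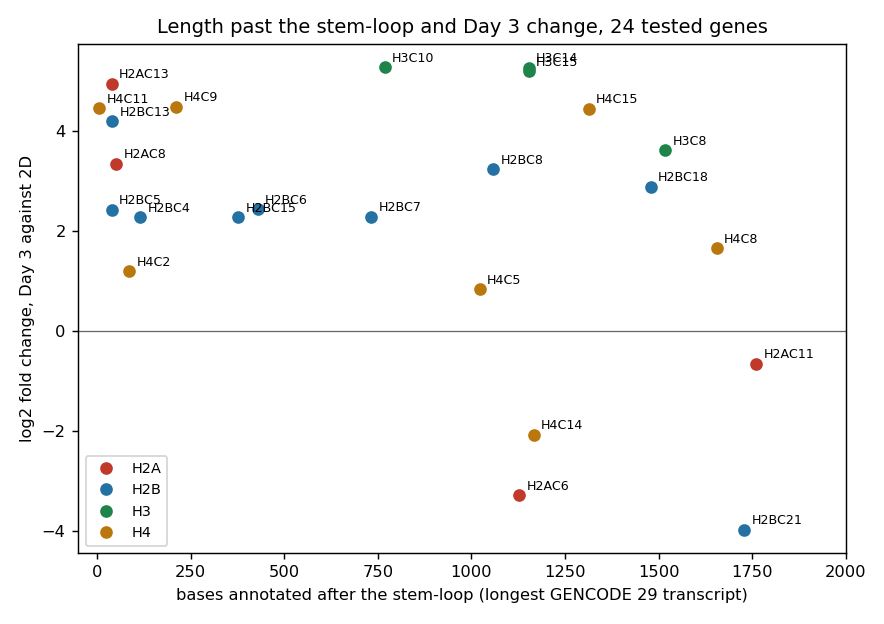
Log2 fold change of Day 3 against the monolayer by the number of annotated bases after the stem-loop in the longest GENCODE 29 transcript model of any type, decay targets included, for the tested members whose transcript holds the stem-loop, coloured by family. The 3 members that fell have 1128, 1167 and 1729 bases, and members that rose reach 1655 bases.

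A list of 6 members known to give polyadenylated mRNA (H1-2, H2AC6, H2BC4, H2BC5, H2BC12 and H2BC21) was drawn up with earlier results of these data known. H2BC12 was not tested. At Day 3 H1-2, H2BC4 and H2BC5 rose and H2AC6 and H2BC21 fell, with a median of 0.80. H2BC5 had 54.3, 57.1 and 54.9 CPM in the monolayer and 294, 303 and 296 CPM at Day 3. At Day 28 H1-2, H2AC6 and H2BC21 were lower than in the monolayer, and H2BC4 and H2BC5 did not pass the test (0.16 ± 0.17 and 0.29 ± 0.23). Scaled by library size alone both were higher (edgeR adjusted p = 0.0452 and 0.0476), as they were without the filter on low counts (0.0197 and 5.33e-05), and H2BC5 was also higher with only these groups in the fit (0.0227). Whether the counted molecules were polyadenylated was not tested.

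The 62 members with a GENCODE 29 location lie in 3 clusters, which hold 55 of the 59 tested members, and H2AC18, H2AC19, H3C2 and H3C3 are in none of the following counts. The cluster at 27125897 to 27893843 on chromosome 6 had 17 tested members, of which 16 rose at Day 3 and none fell, with a median of 4.48. The cluster at 25726132 to 26285638 on chromosome 6 had 29, of which 26 rose and 1 fell, with a median of 2.46. The cluster at 149782689 to 149887916 on chromosome 1 had 9, of which 7 rose and 2 fell, with a median of 2.89. Of all genes tested, 40.1% rose and 37.8% fell at Day 3. These counts include members with a monolayer library under the filter's level. H2AC1, H2BC1 and H3C1, in the cluster at 25726132 to 26285638, are examples. The difference between clusters was not tested.

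Histone mRNA did not stay at the Day 3 level. Among the 6 spheroid days 54 of the 59 tested members varied by edgeR's F test, where 76.2% of all genes tested did. The exceptions were H1-1, H1-3, H2AC11, H2BC18 and H4C7, all of them rare. At Day 10 against Day 3, 25 members rose and none fell, beside 11.1% and 9.43% of all genes, with a median of 0.66. Scaling by library size alone gave 23 and 0, and moved the higher part of all calls from 54.1% to 33.1%. With only the libraries of Day 3 and Day 10 in the fit, 38 rose and 6 fell. The share of all genes called in that fit was not counted. H2BC14 had 152, 151 and 133 CPM at Day 10, a rise of 1.33 ± 0.23, and H2AC14 had 2305, 2539 and 2091 CPM (1.13 ± 0.24). H1-2 reached 911, 915 and 752 CPM (0.83 ± 0.21). H2AC4 instead had 648, 689 and 595 CPM, below all its Day 3 libraries, with a log2 fold change of -0.51 ± 0.25 that did not pass the test (edgeR adjusted p = 0.17). This fall passed with only the Day 3 and Day 10 libraries in the fit (adjusted p = 1.14e-07) and without the filter on low counts (4.54e-11), and not under the other alternatives, where the adjusted p ran from 0.0838 to 0.331. The fit of all libraries gives each gene 1 spread over the 7 groups. Over the tested members the median ratio of highest to lowest library was 1.11 at Day 3 and 1.27 at Day 10, beside 1.82 at Day 14. A value between early days that did not pass therefore also carries the spread of the late days. H4C14 passed only just (adjusted p = 0.049), its Day 10 libraries overlapped those of Day 3, and its call was lost when any of these 6 libraries but Day 10 replicate 1 was left out (adjusted p 0.0848 to 0.221).

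Day 7 was compared with its neighbours after the values by day had been seen. Against Day 3, 4 members rose at Day 7, namely H2AC6, H2BC21, H4C14 and H3C12, and 7 fell, beside 10.6% and 8.76% of all genes. The first 3 also fell from monolayer to Day 3, but both comparisons use the same Day 3 libraries, so a low Day 3 value enters both. Leaving out any of the 6 libraries left 2 that rose and 1 to 3 that fell, and H4C14 and H3C12 lost their calls each time, with adjusted p of 0.0581 to 0.12 and 0.0664 to 0.141. H2AC6 and H2BC21 kept theirs each time. With only these libraries in the fit 30 members fell, and scaling by library size alone gave 4 that rose and 10 that fell, while the higher part of all calls moved from 54.8% to 39.4%. The share of all genes called was not counted in either of these fits. Day 10 against Day 7 gave 38 members that rose and 1, H2AC6, that fell, beside 13.9% and 13.5% of all genes.

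Between Day 10 and Day 14, 49 members fell and 1, H2AC6, rose, beside 24.3% and 24% of all genes, with a median of -2.05. H2BC14 fell by 2.76 on the log2 scale to 29.2, 20.8 and 14.1 CPM, and H2AC4 by 2.63 to 141, 108 and 62.3 CPM. All 12 tested H3 genes fell. H2AC6 had 87.4, 75.8 and 80.6 CPM at Day 14 (0.46 ± 0.11).

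**Figure D5:**
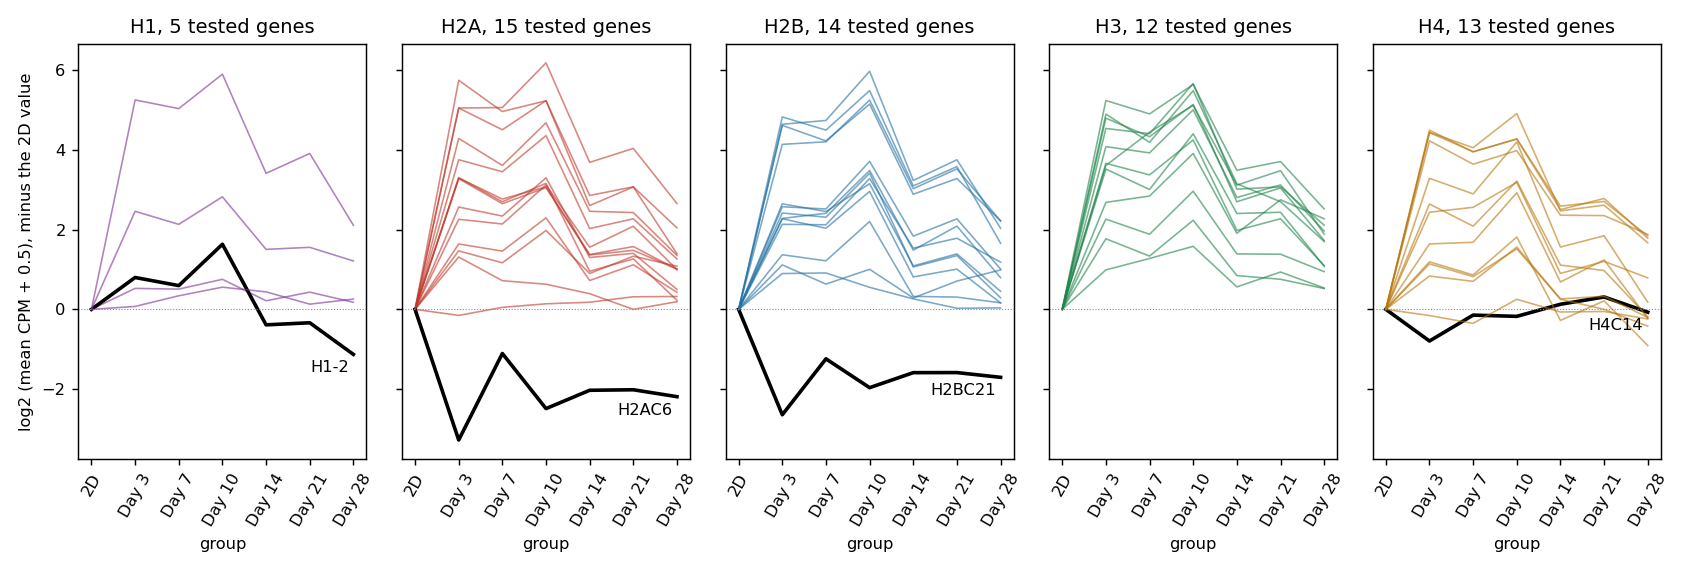
Course of each tested member by family, as log2(mean CPM of 3 libraries + 0.5) minus the 2D value, by group, with H1-2, H2AC6, H2BC21 and H4C14 in black. Most lines rise at Day 3 and drop at Day 14, while H2AC6 and H2BC21 drop at Day 3, stand higher at Day 7 and stay below 0.

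The late days held a smaller decline. From Day 14 to Day 28, 34 members fell and none rose, beside 13.2% and 10.7% of all genes, with a median of -0.75. This count depended on single libraries: leaving out Day 14 replicate 1 gave 15, Day 14 replicate 2 gave 20, Day 28 replicate 2 gave 20 and Day 28 replicate 3 gave 19, and a fit of those 6 libraries alone gave 18. H1-5 fell from 56.8, 41.9 and 22.0 CPM to 15.4, 16.9 and 15.9 CPM (-1.33 ± 0.29). In comparisons added after the values had been seen, Day 21 against Day 14 gave 5 members that rose (H2AC15, H2AC21, H2BC7, H3C6 and H3C8) and 1 that fell (H2AC1, on few counts), beside 13.9% and 12.7% of all genes. Leaving out a library gave 1 without Day 14 replicate 3 or Day 21 replicate 1, 3 without Day 21 replicate 2, 10 without Day 21 replicate 3 and 13 without Day 14 replicate 1. The member that fell was lost without Day 14 replicate 3, Day 21 replicate 2 or Day 21 replicate 3. Day 28 against Day 21 gave none that rose and 39 that fell, beside 10% and 14%. Scaled by library size alone the counts were 0 and 38, with the higher part of all calls at 55.6% in place of 41.8%. Over the whole spheroid course, Day 28 against Day 3, 49 members fell and 3 rose, beside 30.2% and 29.5% of all genes. The 3 were H2AC6, H2BC21 and H4C14, again against the Day 3 libraries in which they were low, and H2AC4 fell by 4.37 to 50.8, 37.9 and 45.4 CPM.

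Libraries of the same day differed in histone mRNA, by the highest median ratios at Day 14 and Day 21. The median ratio of the highest to the lowest of 3 libraries was 1.82 over the tested members at Day 14 and 1.62 at Day 21, beside 1.18 and 1.20 over all genes tested. Replicate 1 of Day 14 was highest in 47 of 59 members and replicate 3 was lowest in 51. At Day 21 replicate 1 was highest in 53 and replicate 3 lowest in 45. Replicate 3 of Day 10 was lowest in 52 and replicate 1 of Day 28 highest in 45, with smaller median ratios of 1.27 and 1.33, beside 1.18 and 1.22 over all genes. A summed level of 35 S phase DNA replication genes went the same way, with 1787, 1633 and 1255 CPM at Day 14 and 2082, 1646 and 1609 CPM at Day 21. The part of these libraries' differences in the results was not tested beyond leaving each out.

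Counted against the monolayer at the days between, in comparisons also added after the values had been seen, 53 members were higher and 2 lower at Day 7, beside 40.4% and 38.4% of all genes, and 54 and 2 at Day 10, beside 40% and 37.9%. The counts were 46 and 2 at Day 14, beside 38.7% and 35.7%, and 45 and 2 at Day 21, beside 39.3% and 35.1%. The 2 lower members were H2AC6 and H2BC21 on each of these 4 days. All these counts include the 14 members with at least 1 monolayer library under the filter's level.

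At Day 28 most members were still above the monolayer. Of 59, 37 were higher and 5 lower, beside 38.5% and 34.8% of all genes, with a median of 1.28. Among the 45 with all monolayer libraries at the filter's level, 31 were higher and 5 lower, with a median of 1.25. Of the other 14, 6 were higher and 0 lower. All 12 tested H3 genes were higher, among them H3C10 at 115, 95.8 and 96.4 CPM (2.55 ± 0.25). H3C1, H3C7, H3C8 and H3C15 were among the 14 and passed the filter through spheroid libraries. The H4 genes were divided, with 5 of 13 higher and 2 lower. The 5 lower members were H1-2, H2AC6, H2BC21, H4C2 and H4C3. H1-2 had 149, 118 and 113 CPM at Day 28 (-1.13 ± 0.22, edgeR adjusted p = 0.00026), having been above the monolayer at Day 3. H4C2 had 48.0, 34.0 and 39.0 CPM (-0.93 ± 0.21), and H4C3 62.2, 54.8 and 58.3 CPM (-0.43 ± 0.16, adjusted p = 0.028). The call of H4C3 was lost when scaled by library size alone (adjusted p = 0.215) and without 2D replicate 2 or 3 or Day 28 replicate 2 or 3 (adjusted p 0.0617 to 0.113). H2AC6 was at -2.20 ± 0.11 and H2BC21 at -2.16 ± 0.42. Both comparisons with 2D, of Day 3 and of Day 28, use the same monolayer libraries. Scaling by library size alone moved the median of all genes up by 0.22 at Day 3 and at Day 28, beside member medians of 3.30 and 1.28.

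Other genes of the histone supply were counted from lists also drawn up with earlier results known. All 35 S phase DNA replication genes rose at Day 3, with a median of 3.11, among them RRM2, a subunit of ribonucleotide reductase (5.51 ± 0.32), and MCM10, a replication initiation factor (5.32 ± 0.25). All 35 fell from Day 10 to Day 14. Of all genes tested, 40.1% rose at Day 3 and 24.3% fell from Day 10 to Day 14. MKI67, a marker of cycling cells, had 4.79, 2.82 and 2.31 CPM in the monolayer, 155, 165 and 157 CPM at Day 3 and 137, 132 and 132 CPM at Day 10. Its Day 10 against Day 3 value did not pass the test (-0.25 ± 0.16, edgeR adjusted p = 0.30). Of the 59 tested histone genes 34 did not pass either, but 25 rose and 0 fell, with a median of 0.66. Of the 35 S phase genes, 11 rose at Day 10 over Day 3 and none fell, with a median of 0.30. Of all genes tested, 11.1% rose and 9.43% fell at this step. Of 4 tested replication-dependent genes whose symbols fall outside the rule, all rose at Day 3, with H2BU1 at 2.89 ± 0.21 and H2BS1 at 2.24 ± 0.35.

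Regulators moved in both directions. Of 12 genes of histone mRNA 3' end processing, 6 rose and 3 fell at Day 3, with a median of 0.49. SLBP, which binds the stem-loop, went from 34.2 ± 2.38 to 50.9 ± 3.47 CPM (SD, n = 3), a log2 fold change of 0.57 ± 0.10, and reached 69.1 ± 6.72 CPM at Day 10. SRRT and CSTF2 had the largest rises of this list (1.99 ± 0.10 and 1.93 ± 0.08). ZNF473 and TUT7, the latter a terminal uridylyltransferase, had the largest falls (-2.24 ± 0.91 and -2.20 ± 0.11). ZNF473 was rare, with means of 0.87 CPM in the monolayer and 0.18 CPM at Day 3. Of 9 genes of histone gene transcription 3 rose and 4 fell, with a median of -0.28. Of all genes tested 40.1% rose and 37.8% fell, and nothing particular to either list is read from these counts. NPAT fell by 0.54 with an SE of 0.13, and HINFP, a factor that binds H4 promoters, by 1.49 with an SE of 0.31. CRAMP1, known for its role in H1 gene transcription, was at -1.31 ± 0.20, while CCNE1, the cyclin E that drives entry into S phase, was at 1.63 ± 0.29 and CASP8AP2 at 1.37 ± 0.07.

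Among 22 histone chaperones and importers 15 rose and 4 fell at Day 3, with a median of 1.04, beside 40.1% and 37.8% of all genes. The H3 and H4 chaperone ASF1B rose by 5.43 ± 0.25 on the log2 scale, while its relative ASF1A was at -0.45 ± 0.06. HJURP, which loads CENPA at centromeres, was at 6.13 ± 0.66 from a mean of 0.02 CPM in the monolayer, and the importin IPO4 at -0.62 ± 0.18. Of 12 replication-independent variants 6 rose, a share not far from the 40.1% of all genes. H2AX, whose mRNA can end either way, went from 201 ± 20.7 to 918 ± 18.5 CPM (2.19 ± 0.20). CENPA, the centromeric H3, was at 3.50 ± 0.61 from a mean of 0.12 CPM in the monolayer. H3F3B, a source of H3.3, was at -2.10 from a monolayer mean of 4.84 CPM. H2AJ did not pass the test at Day 3 (-0.25 ± 0.14, edgeR adjusted p = 0.097).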

How the data were processed

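TempO-Seq was run on 21 libraries of total RNA from HepG2/C3A cells, 3 for each of 7 groups, with 100 ng RNA per library per the labels' protocols. The authors deposited raw counts per gene symbol in 1 table. Per the submitters' processing notes the tools included STAR 2.7.10b, fastp 0.23.2, bcl2fastq 2.20.422 and DESeq2 1.38.0, on GRCh38.p13, without stated roles. The sources used here do not say how a gene's probes were combined. Columns were assigned to libraries by the labels' descriptions.

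Genes were filtered with filterByExpr (minimum count 10), scaled by TMM and tested with edgeR 4.0.16 (R 4.3.3) in a robust quasi-likelihood fit of all libraries, with 14 residual degrees of freedom and a common biological coefficient of variation of 9.62%. Each gene had 1 spread for all groups in this fit. The members' libraries differed more at Day 14 and Day 21 than at Day 3. Calls used a Benjamini-Hochberg adjusted p under 0.05 over 12345 genes. In simulated libraries, 108 of 12090 genes were changed 2-fold and 92 were changed 4-fold at Day 3. Of these 92.6% and 100% were recovered against 2D, with 6 false calls. All other genes had the same mean level in every group, and the rarest genes were not among those changed. The simulation therefore does not cover a shift of many genes, as between Day 3 and 2D, or members with few counts. Alternatives were DESeq2 1.42.0 (test, and its size factors in edgeR), library size alone, no filter, fits of 2 groups, a replicate block and leaving out each library. Over all genes tested, none of 63 same-numbered pairs of libraries had deviations from the group means correlated above 0.1. Among the 59 tested members, replicate 1 was highest in 47, 53 and 45 at Day 14, 21 and 28. It was highest in 32, 18, 25 and 17 in 2D and at Day 3, 7 and 10. Whether shared numbers link libraries for the members was not tested beyond the replicate block. Replicates differed by more than counting noise (chi-square per degree of freedom 5.68 to 29.7), and counting intervals and floors cover counting error only.

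Locations and transcripts came from GENCODE 29 (GRCh38), promoters from RefSeq (GRCh38.p14). The authors' patch release differs, but all are GRCh38. Members and lists were chosen with earlier results of these data known. Named genes were the 3 given markers, in each family the 2 most abundant tested members and those with the largest and smallest Day 3 change, members lower at Day 3 or Day 28, the polyadenylating list, up to 2 rises and 2 falls per other list, and SLBP, NPAT, H2AX, H2AJ and MKI67. A further gene under this rule is not reported here. Other members are named where a count of 5 or fewer, a gene copy or a neighbour called for it, after their values were seen.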

Additional observations from a re-analysis of the deposited data

How the results depend on the processing

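Results depended little on the tool or scaling for Day 3 against 2D, and more for small changes between spheroid days. Of 1774 alternative values for 149 results of single members, 1644 kept direction and side of the threshold, 68 lost the call, 51 gained it and 11 changed sign. Members higher at Day 10 against Day 3 numbered 25, with 41 without the filter on low counts and 38 with only the 2 groups in the fit, and members lower 0, with 4 and 6. At Day 28 against Day 14 members lower numbered 34, with 18 when only these groups were fitted and 15 to 41 with a library left out, and members higher 0, with 0 to 1. Members higher at Day 14 against Day 10 numbered 1, with 1 to 2 when a library was left out (2 without Day 10 replicate 3). For Day 7 against Day 3, members lower numbered 7, with 27 without the filter, 30 with only the 2 groups and 1 to 3 without a library, and members higher 4, with 2 in each fit without a library. For Day 21 against Day 14, members higher numbered 5, with 29 without the filter, 1 with only the 2 groups and 1 to 13 without a library, and members lower 1, with 3 without the filter, 0 by DESeq2 or with only the 2 groups, and 0 to 1 without a library. Members lower at Day 14 against 2D numbered 4 without the filter, and at Day 10 against Day 7 2 without it and 1 to 2 without a library. Shares of all genes called were not counted in the alternative fits, so nothing particular to the members is read from these shifts. The causes were not tested.

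Signs changed only for values that did not pass the test in the fit of all libraries. For Day 14 against Day 10, H2AC1 was 0.07061 without Day 10 replicate 2, in a range of -3.8143 to 0.07061 over the fits without a library. The lowest of these values, without Day 14 replicate 3, passed the test (edgeR adjusted p = 0.0403). The same ranges for Day 28 against Day 14 were -5.3669 to 1.5415 for H2AC1 (the highest without Day 14 replicate 3), -4.8192 to 2.0964 for H2BC1 (without Day 14 replicate 1), -0.49174 to 0.01229 for H2BC21 (without Day 28 replicate 2), -0.21657 to 0.077425 for H3C6 (without Day 14 replicate 1, and also above 0 without Day 14 replicate 2 or Day 28 replicate 2) and -0.56995 to 0.08539 for H4C14 (without Day 14 replicate 3). For Day 28 against 2D, H4C14 was 0.093429 with library size alone and ranged from -0.39874 to 0.4036 (without 2D replicate 3, and above 0 also without Day 28 replicate 1). The cause was not tested.

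With the replicate block, members higher numbered 53 at Day 3 against 2D, 38 at Day 28 against 2D, 30 at Day 10 against Day 3, 1 at Day 14 against Day 10, 0 at Day 28 against Day 14 and 3 at Day 28 against Day 3. Members lower in the same order numbered 3, 5, 0, 50, 37 and 49, and 54 varied among the spheroid days. In the added comparisons the block moved Day 21 against Day 14 to 9 higher and 0 lower, and Day 10 against Day 7 to 2 lower. Over all genes tested, same-numbered libraries had correlations from -0.0599 to 0.0991. Depth limits members such as H4C14, H1-3, H2AC1 and H2BC1, which rest on few counts.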
